A study of Homo sapiens with 8 samples.

Results

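The comparison described here is that of histone H3 acetylated at its K27 lysine (H3K27ac) between spheroids of a pancreatic tumour line grown in a stromal and in an astromal gel. It rests on the 2 deposited H3K27ac peak lists, 1 library each, with 14489 peaks in the astromal and 15093 in the stromal list. Together they hold 29582 of the 57049 peaks in the 4 peak lists of the series. The other lists hold H3K9ac peaks (7141 astromal and 20326 stromal), and were used here to name genes and as a second readout.

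All spheroids were MIA PaCa-2, an established cell line from a human pancreatic carcinoma, seeded from cultures in DMEM with 10% FBS. The gels were made with the HyStem-C kit. The astromal gel held degassed water, Glycosil (a hyaluronan) and Extralink (a PEGDA cross-linker), and its medium was DMEM with 2% FBS. The stromal gel also held Gelin-S (described in the labels as collagens), and its medium, with 2% FBS, had been conditioned for 48 h by immortalized stromal myofibroblasts that grew out of a resected human pancreatic ductal adenocarcinoma. Both arms shared the cell line, the Glycosil, the cross-linker and a first night in medium with 10% FBS. The gel component and the conditioned medium changed together, so their effects cannot be told apart, and no living stromal cell was part of the culture as the labels give it. With 1 library per condition no replicate error can be given for any difference, and no p-value is printed. Each interval covers counting error alone.

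H3K27ac is placed by the acetyltransferases EP300 and CREBBP from acetyl-CoA, removed by histone deacetylases and bound by bromodomain proteins. It marks nucleosomes that flank active promoters and enhancers, while the nucleosome-poor stretch at the start of transcription itself usually lies between its peaks. Pancreatic ductal adenocarcinoma is known for a dense stroma, in which myofibroblasts deposit collagen and hyaluronan and secrete metabolites and growth factors that reach the tumour cells.

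Gene names come from the nearest annotated H3K9ac peak, at most 2 kb from the H3K27ac peak, so a gene without H3K9ac nearby could not be named. Levels are normalised tags, the tags in a peak per 10000000 tags of the library. Epithelial keratins carried the mark in both lists: KRT19 summed to 35.7 in the astromal and 43.1 in the stromal list, KRT8 to 19.3 and 32.6, and KRT18 to 11.9 and 13.4. Other members had lower stromal values: MUC1, a mucin gene, had 35.6 and 15.1 (the 1 member called by the rule given below, as lower), ESRP2, an epithelial splicing regulator gene, 45.3 and 36.6, and ELF3 25.2 and 18. In all, 8 of 20 epithelial and ductal markers had H3K27ac (206 normalised tags summed over the list in the astromal library, 159 in the stromal), with CLDN4 (18.6) and SOX9 (14.1) in the astromal list alone, while EPCAM, CDH1 and KRT7 had no H3K9ac peak to name them. Of 16 fibroblast and myofibroblast markers 2 had H3K27ac (89.2 and 82.6 summed), namely the collagen genes COL1A2, with 89.2 and 67.5, and COL6A3, with 15.1 in the stromal list alone. Of 11 mesenchymal-type markers 4 had H3K27ac (75.9 and 32 summed), and SNAI1 was the one found in both lists. PAX6 alone carried H3K27ac among 16 acinar and endocrine markers, with 35 and 34.9. None of the 16 blood and endothelial markers did. Whether chromatin of other cells contributed to either library was not tested.

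Several promoters at which the lists differ are printed first, since the peaks described below lie on or beside them. Each line gives the 250 bases before the start of transcription, 5′ to 3′ on the strand of the gene, from RefSeq on build GRCh38.p14. The promoter table matched 7315 of the 9166 genes with H3K27ac. Capitals mark matches on either strand to the CCAAT box, the E-box CACGTG, the hypoxia element core ACGTG (which also lies within the E-box), the AP-1 letters TGANTCA, the antioxidant element TGACNNNGC, the TATA box TATAAA or the ETS letters CCGGAAG. SMG9, PCGF1 and S100A4 carried astromal peaks alone. TM4SF18 had a stromal peak just upstream of its start, C21orf59 (CFAP298 in RefSeq) had 1 upstream peak in each list that was higher in the stromal, and DCK and PDE12 had overlapping upstream peaks that were lower in the stromal list. The windows lie at chr19:43754963-43755212 (SMG9, minus strand), chr2:74507696-74507945 (PCGF1, minus strand), chr1:153545807-153546056 (S100A4, minus strand), chr3:149333637-149333886 (TM4SF18, minus strand), chr21:32612378-32612627 (C21orf59, minus strand), chr4:70993399-70993648 (DCK, plus strand) and chr3:57556024-57556273 (PDE12, plus strand).
SMG9: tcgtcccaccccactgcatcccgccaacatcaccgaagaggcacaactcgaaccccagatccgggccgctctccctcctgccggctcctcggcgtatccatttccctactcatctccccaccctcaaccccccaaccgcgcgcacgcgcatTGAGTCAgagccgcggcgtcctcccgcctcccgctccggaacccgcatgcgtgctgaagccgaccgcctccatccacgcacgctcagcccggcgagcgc
PCGF1: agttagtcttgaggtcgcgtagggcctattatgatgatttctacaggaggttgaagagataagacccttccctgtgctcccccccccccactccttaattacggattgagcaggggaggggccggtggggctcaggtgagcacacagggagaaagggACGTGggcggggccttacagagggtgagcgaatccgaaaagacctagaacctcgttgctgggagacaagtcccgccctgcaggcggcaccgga
S100A4: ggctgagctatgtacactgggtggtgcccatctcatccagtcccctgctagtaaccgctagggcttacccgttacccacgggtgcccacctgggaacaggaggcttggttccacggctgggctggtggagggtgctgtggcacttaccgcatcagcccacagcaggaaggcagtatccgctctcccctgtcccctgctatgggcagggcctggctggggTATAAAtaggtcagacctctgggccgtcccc
TM4SF18: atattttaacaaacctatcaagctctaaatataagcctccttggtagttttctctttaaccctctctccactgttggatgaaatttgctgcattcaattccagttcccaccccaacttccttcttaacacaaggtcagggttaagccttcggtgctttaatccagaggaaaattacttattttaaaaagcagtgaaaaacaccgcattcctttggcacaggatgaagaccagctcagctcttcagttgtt
C21orf59: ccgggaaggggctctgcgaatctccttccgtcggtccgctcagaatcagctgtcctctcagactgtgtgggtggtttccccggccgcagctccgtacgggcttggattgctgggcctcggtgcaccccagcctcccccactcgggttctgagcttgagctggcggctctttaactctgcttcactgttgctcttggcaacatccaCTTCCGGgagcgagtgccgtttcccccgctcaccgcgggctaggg
DCK: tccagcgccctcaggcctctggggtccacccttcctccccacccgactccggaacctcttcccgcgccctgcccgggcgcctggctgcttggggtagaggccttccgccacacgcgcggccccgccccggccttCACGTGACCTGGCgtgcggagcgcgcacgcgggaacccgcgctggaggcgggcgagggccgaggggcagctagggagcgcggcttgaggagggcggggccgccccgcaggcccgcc
PDE12: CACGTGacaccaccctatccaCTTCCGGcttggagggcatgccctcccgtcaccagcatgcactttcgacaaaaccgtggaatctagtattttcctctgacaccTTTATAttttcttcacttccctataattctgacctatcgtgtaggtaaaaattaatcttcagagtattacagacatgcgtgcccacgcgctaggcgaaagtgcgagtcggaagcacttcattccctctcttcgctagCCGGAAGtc

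These windows differ widely in base composition. That of DCK is 78% G+C with 31 CpG, and that of TM4SF18 is 40% G+C with 2 CpG. DCK holds CACGTG at base -116 from the start and TGACNNNGC at -112, SMG9 holds TGANTCA at -99, and S100A4 holds TATAAA at -31. C21orf59 holds CCGGAAG at -45 and PDE12 at -229 and -9, whereas TM4SF18 matched none of the 7 patterns in this window. Among all 35116 promoter windows of the table CCAAT was found in 32%, CACGTG in 6.34%, ACGTG in 18.5%, TGANTCA in 6.57%, TGACNNNGC in 10.9%, TATAAA in 10.7% and CCGGAAG in 8.52%. Genes with H3K27ac in both lists had CCGGAAG in 16.3% and TATAAA in 5.19% of their windows. In windows of genes found in 1 list CCGGAAG was in 14.8% of the astromal-only and 14% of the stromal-only. CCAAT was in 29.8% and 34.5%, against 34.1% for genes in both lists, and ACGTG was in 21.5% and 20.2%, against 24.5%. CACGTG was in 6.84% and 7.48%, against 9.01%. The median G+C content was 66.4% and 64.4%, against 64% for genes in both lists. The match of letters is a description, and the start in this build could not be set against the start used for the peaks.

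The astromal peaks were 197 bp wide and the stromal peaks 175 bp, from libraries of 13453902 and 17190695 tags. The median peak held 18 tags in the astromal and 20 in the stromal list, which is 13.4 and 11.6 normalised tags. The strongest peak of both lists was named for CROCC, the gene of the ciliary rootlet protein rootletin. Its naming H3K9ac peak was intergenic, at -16883 bp from the start of the gene. The H3K27ac peak had 87.7 normalised tags (118 tags) in the astromal and 83.2 (143 tags) in the stromal library. Peaks at LINC00910, a non-coding RNA gene (82.5 and 69.8), and at SIAH1, an E3 ubiquitin ligase gene (63.9 and 60.5), were also among the first 5 of each list. The astromal peaks ranked between LINC00910 and SIAH1 had no gene name and no stromal partner: 73.6 on chromosome 5 and 66.9 on chromosome 12, the latter 17.1 kb from the nearest stromal peak.

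Of the astromal peaks 8813 (60.8%, 95% exact binomial interval 60 to 61.6%) overlapped a stromal peak by at least 1 bp, and 8814 stromal peaks (58.4%, 57.6 to 59.2%) overlapped an astromal peak. Sharing rose with the strength of a peak and with its height over the surrounding 10 kb, a ratio that the authors' peak caller required to reach 4. Among astromal peaks with a ratio under 5, 40.6% were shared, and among those at 12 or more 79.3%. The stromal list gave 35.7% and 82.1%. Tags counted for less when the ratio was low: of peaks with over 30 tags and a ratio under 5, 43.8% of the astromal and 42.0% of the stromal were shared. With over 30 tags and a ratio of 12 or more the shares were 92.4% (510 of 552) and 93.5% (674 of 721).

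**Figure D1:**
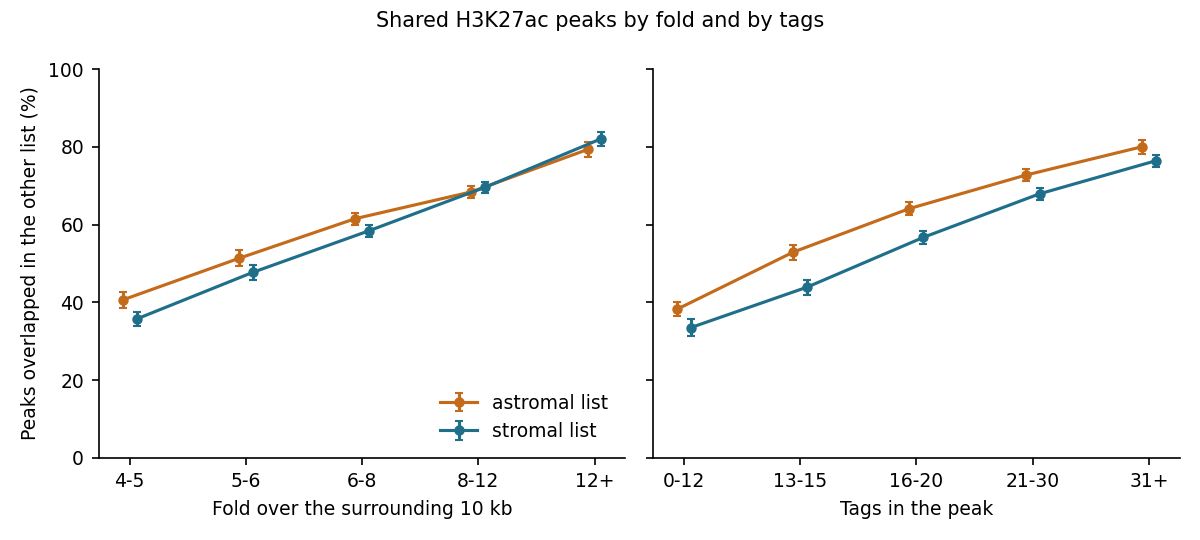
Percent of H3K27ac peaks that overlap a peak of the other list (y axis), by fold over the surrounding 10 kb (left) and by tags in the peak (right), with 95% exact binomial intervals. Points are the astromal and stromal lists. In both, the share climbs from 40.6% and 35.7% under 5-fold to 79.3% and 82.1% at 12-fold or more.

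A peak in 1 list alone did not usually mean a region without the mark in the other. Of 5676 peaks found in the astromal list alone, 51.4% lay within 500 bp of a stromal peak and 68.5% within 2 kb, and of 6279 stromal-only peaks 53.9% and 71.4% lay within those distances of an astromal one. Peaks with at least 25 tags, at least 8-fold over the surroundings and no peak of the other list within 2 kb were rare: 16 of 2117 such astromal peaks (0.756%) and 8 of 2561 stromal ones (0.312%).

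Those 24 peaks lie far from the limits of peak calling in tags and in fold over the surroundings, though not all in fold over input. On the astromal side they included RCCD1 (24.5 normalised tags, 33 tags, nearest stromal peak 24.5 kb away), SUV420H1, a gene for a histone H4 lysine methyltransferase (20.8, 28 tags), GFM1, a mitochondrial translation elongation factor gene (20.8, 28 tags), MEGF9 (20.1, 27 tags) and EPS15L1 (19.3, 26 tags). On the stromal side they included EXOSC2, a subunit gene of the RNA exosome (20.9, 36 tags, naming peak at -3326 bp, nearest astromal peak 2.67 kb away). TERF2, which encodes a protein that protects telomere ends (16.9, 29 tags), and RPL22L1 (16.3, 28 tags, naming peak at -14016 bp) were others. So were NFKBIB, an inhibitor of NF-kappaB (14.5, 25 tags), and ACTR2, a subunit of the actin-nucleating Arp2/3 complex (14.5, 25 tags). The tallest had no gene name: an astromal peak at chr5:71146703-71146899 (hg19) held 99 tags, 73.6 normalised tags and 170 times its surroundings, with the nearest stromal peak 263 kb away. It also had 5.7 input tags, where the lowest value of the list was 0.4. Its fold over input was 17.2, below the list median of 25.6. Unnamed astromal peaks on chromosomes 17 and Y had 6.6 and 7.4 input tags and were 7.92- and 6.9-fold over input. Whether read mapping shaped these peaks was not tested.

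Peak heights were compared over the 8813 pairs of overlapping peaks, each astromal peak with the stromal peak that it overlapped best. The log2 ratio of stromal to astromal normalised tags had a median of -0.18 (quartiles -0.45 and 0.08), and per base of peak width it was -0.01. The shift was close to the log2 ratio of the peak widths, -0.17, so ratios are given after subtracting the median, and are called centred. A pair was called higher or lower when it differed by 2-fold or more after centring and the 95% interval from its tag counts left out 0.

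Heights were close in the 2 libraries. The centred ratio was within 2-fold in 8661 pairs (98.3%), and normalised tags correlated across pairs (Pearson's r = 0.766, Spearman's rank correlation 0.749, over peaks of the same 2 libraries, which are not independent replicates). Of all pairs 39 (0.443%) were called higher and 84 (0.953%) lower in the stromal list. Uncentred ratios gave 10 pairs higher and 201 lower, so the size of the imbalance rests on that step. The counting interval left out 0 in 243 pairs (2.76%). A pair needs a called peak in both lists, which limits large ratios. This share therefore cannot be set against the 5% that a 95% interval may miss.

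The signal around the peaks was close in both libraries. The level in the surrounding 10 kb, recovered from the deposited fold over surroundings, had log2 ratios with a median of -0.02 and quartiles of -0.17 and 0.13, and reached 2-fold in 2 pairs. At the pairs called higher its median was 0.07, and at those called lower -0.08. It rests on more tags than a peak does, so its spread cannot be set against that of the peaks.

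**Figure D2:**
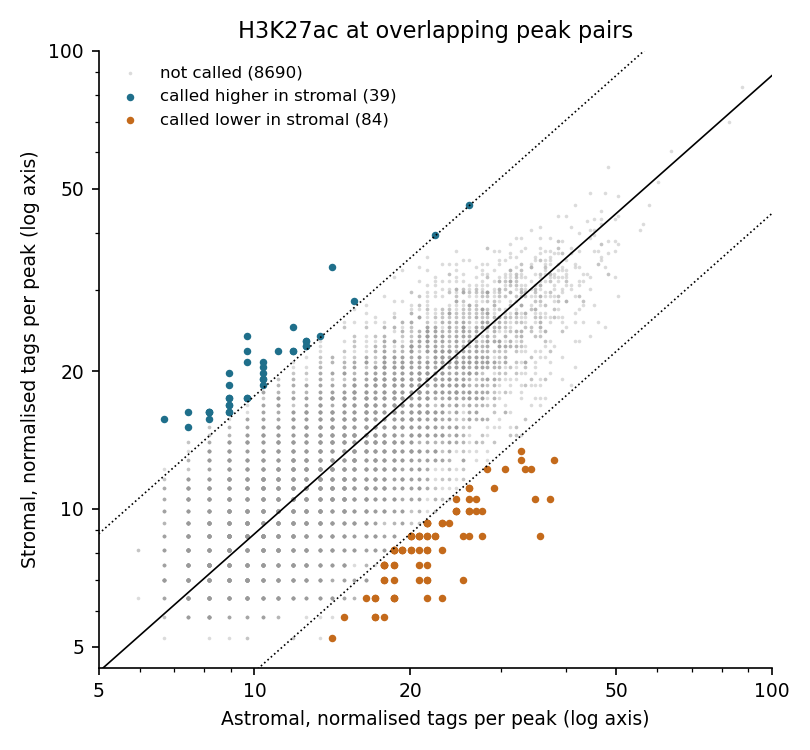
Normalised tags of 8813 overlapping peak pairs on log axes, astromal on x and stromal on y. Grey points (8690) were not called, 39 blue points were higher and 84 orange points lower in the stromal list; the solid line is the median ratio and the dotted lines lie 2-fold around it.

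With at least 20 tags in each library, which 3904 pairs had, 3 were called higher and 7 lower, and with the median taken over these pairs alone 7 were higher and 6 lower. SRSF7, a gene for a serine- and arginine-rich splicing factor, had 37.9 normalised tags in the astromal and 12.8 in the stromal library (51 and 22 tags), a centred log2 ratio of -1.39 (-2.18 to -0.64). PDE12, whose enzyme trims poly(A) and 2′,5′-oligoadenylate, had 34.2 and 12.2 (46 and 21 tags), a ratio of -1.31 (-2.13 to -0.53). SIRT5, which encodes a mitochondrial sirtuin that removes succinyl and malonyl groups, had 33.4 and 12.2 (45 and 21 tags), a ratio of -1.27 (-2.09 to -0.49). By the caller's own score SRSF7 and SIRT5 had -0.92 and -0.93, short of 2-fold. The other lower pairs of this depth, at -1.17 to -1.03, were ZNF497, PSPH (a serine synthesis enzyme), GLYCTK (glycerate kinase) and PKNOX1 (a homeodomain factor).

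On the higher side DDR2, the gene of a collagen receptor tyrosine kinase, had 15.6 and 28.5 normalised tags at the paired peak (21 and 49 tags), a centred log2 ratio of 1.05 (0.29 to 1.86). MEPCE, which caps the 7SK RNA, had 26 and 46 (35 and 79 tags), a ratio of 1.00 (0.41 to 1.62), and an intergenic peak named LOC389602 had 22.3 and 39.6, a ratio of 1.01 (0.37 to 1.68). The gene sum of DDR2 went the other way, 61.7 over 4 astromal peaks and 45.4 over 2 stromal peaks, and was not called. The difference at DDR2 thus belonged to 1 peak of its promoter. Without centring none of these 3 pairs reached 2-fold (0.87 at DDR2, 0.82 at MEPCE and 0.83 at LOC389602), and by the caller's own score they had 0.79, 0.78 and 0.80.

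Larger ratios came from pairs with fewer tags in 1 library. EXO1, a DNA repair exonuclease gene, had 35.7 and 8.73 normalised tags (48 and 15 tags), a ratio of -1.85, and JAK2, the cytokine receptor kinase gene, had 23 and 6.4 (31 and 11 tags), a ratio of -1.66. C21orf59, a gene for a cilia-associated protein, had 14.1 and 33.7 (19 and 58 tags), a ratio of 1.44. LUCAT1, a long non-coding RNA gene, had 11.9 and 25, a ratio of 1.25. Chromosomes did not stand apart, with medians between -0.07 on chromosome 3 and 0.06 on chromosome 6.

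**Figure D3:**
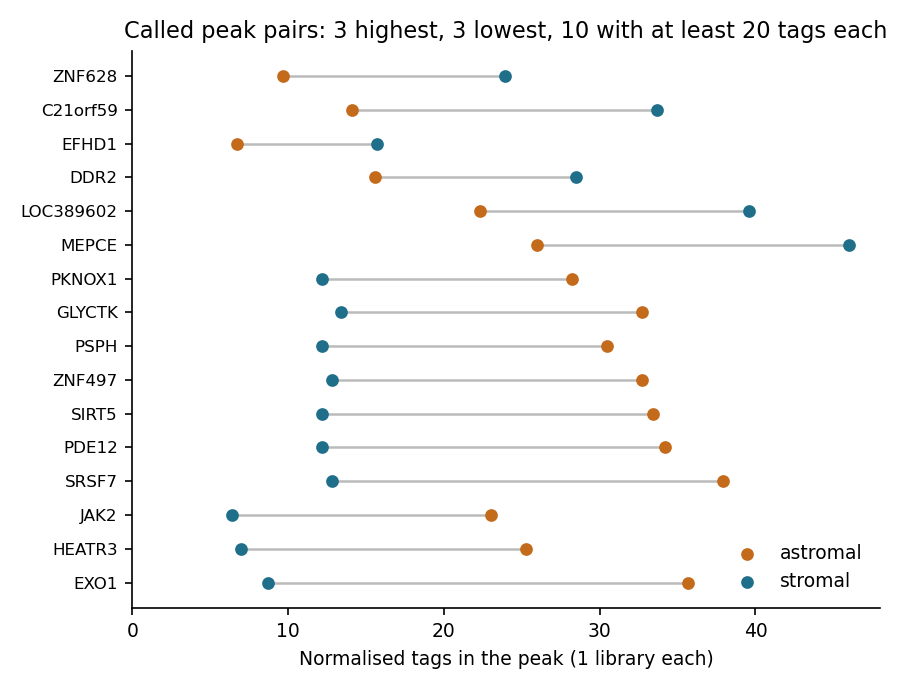
Normalised tags (x axis) of called peak pairs, the 10 with at least 20 tags in each library and the 3 highest and 3 lowest ratios of all, with 1 astromal and 1 stromal point joined by a line for each gene named on the y axis. EXO1 spans 35.7 astromal to 8.73 stromal, and C21orf59 spans 14.1 to 33.7.

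Peaks were then placed against the starts of transcription. The H3K9ac annotation gave a start and strand for 6935 transcripts of 6484 genes, and 7820 astromal (54%) and 7920 stromal peaks (52.5%) were centred within 2 kb of one. Shared peaks overlap each other and so have nearly the same layout by construction: 29.5% of the astromal and 29.2% of the stromal ones within 2 kb lay 100 to 500 bp downstream of a start, in the region of the first nucleosomes of the transcribed side. Peaks of 1 list alone are free to differ. Of astromal-only peaks 33.1% (872 of 2637, 95% exact binomial interval 31.3 to 34.9%) lay there, and of stromal-only peaks 19.9% (545 of 2738, 18.4 to 21.5%).

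Stromal-only peaks were instead more frequent further downstream and on the upstream side. They had 23.3% at 500 to 1000 bp downstream and 24.3% at 500 to 100 bp upstream, against 18.8% and 20.6% of astromal-only peaks. Of all one-list peaks within 2 kb, 62.4% (60.5 to 64.3%) of the astromal and 54.1% (52.2 to 56%) of the stromal were downstream. The contrast at 100 to 500 bp downstream was 34.4% against 20% among peaks of at least 20 tags, 36.2% against 21.5% among peaks at least 6-fold over the surroundings, and 32.8% against 21.6% where the other list had no peak within 2 kb. At 500 to 1000 bp downstream the same subsets gave 15.7% astromal against 18.4% stromal, 16% against 20.2%, and 17.7% against 18%. That contrast was thus nearly absent where the other list had no peak within 2 kb.

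**Figure D4:**
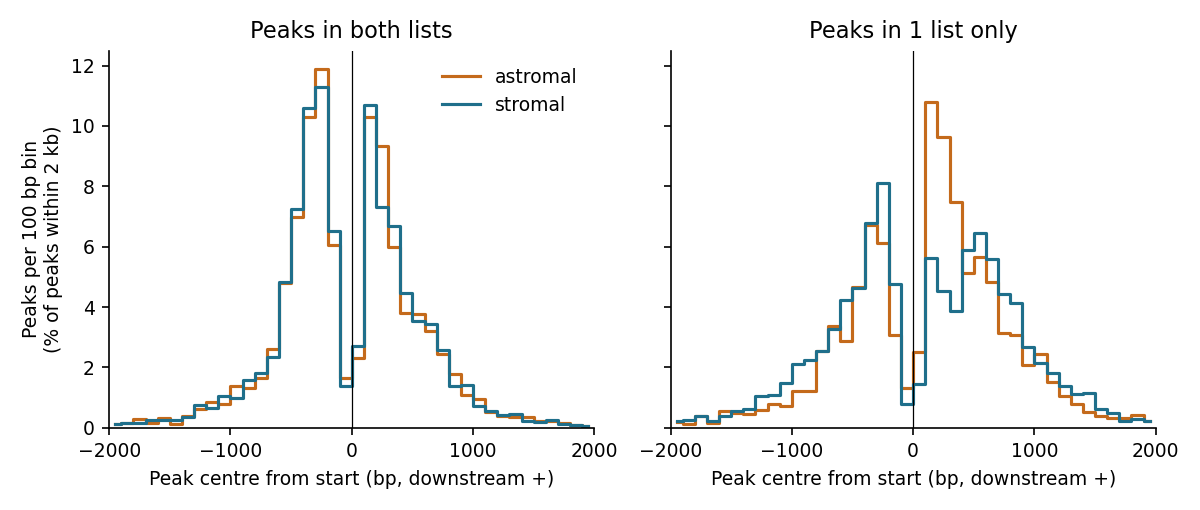
Percent of H3K27ac peaks per 100 bp bin (y axis) by distance of the peak centre from the nearest start of transcription (x axis, bp, downstream positive), for peaks shared by both lists (left) and found in 1 list (right). The shared profiles run together, and among one-list peaks the astromal profile is higher from 100 to 500 bp downstream, 33.1% against 19.9% in all.

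The heights of paired peaks leaned the same way. Of 1527 pairs at 100 to 500 bp downstream 1 was called higher and 33 lower, although their median centred ratio was only -0.07. Over all 8813 pairs 39 (0.443%) were higher and 84 (0.953%) lower. The lean was not confined to the downstream window: of 206 pairs within 100 bp of a start, also with a median of -0.07, 1 was higher and 6 lower. Of 1829 pairs at 500 to 100 bp upstream 9 were higher and 24 lower, and of 3630 pairs over 2 kb from a start or with no start 24 were higher and 17 lower. The downstream lower pairs included SRSF7 at 291 bp, SIRT5 at 134 bp, ZNF33B at 128 bp (37.2 and 10.5 normalised tags), TCF25 at 166 bp (34.9 and 10.5), HEATR3 at 182 bp (25.3 and 6.98) and the tumour suppressor gene APC at 174 bp. The last class mixes distal pairs with pairs at genes whose start was not solved, so it is not a count of distal elements. These libraries differ in depth and peak width as well as in condition, and the part of either in this layout was not tested.

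By gene, 9166 of 12186 genes with an H3K9ac peak carried H3K27ac, 7332 of them in both lists. The astromal list alone held 1051 (11.5%) and the stromal list alone 783 (8.54%). Such genes had few tags, with medians of 13 and 15 summed over the peaks of a gene against 28 and 32 for genes in both. These sums also depend on the number of peaks. In 867 and 596 of them the other list had no peak of any name within 2 kb. Non-coding RNA genes were more often in 1 list: 16.1% of 826 were astromal-only and 11.5% stromal-only, against 10.9% and 8.2% of 8154 coding genes.

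The strongest astromal-only coding genes with no stromal peak within 2 kb were SMG9, of the nonsense-mediated decay machinery (58.7 normalised tags, 79 tags), PCGF1, a Polycomb group subunit (49.8, 67 tags), GPBP1 (48.3, 65 tags), HOXB2, a homeobox factor (46.8, 63 tags), and S100A4, a calcium-binding protein (38.7, 52 tags). Their naming H3K9ac peaks lay -321 to 234 bp from a start. SGK1, a serum- and glucocorticoid-induced kinase (37.2, 50 tags), TGIF1, a corepressor of SMAD factors (33.4, 45 tags), and TSC22D3, a glucocorticoid-induced leucine zipper protein (32.7, 44 tags), were also of this kind. TSC22D3 stood 19.5-fold over its surroundings, SMG9 only 4.52-fold and SGK1 4.31-fold, close to the 4-fold that calling required. SPIRE1 had the highest astromal-only sum, 78.9 in 5 peaks, but a stromal peak lay 1.44 kb away.

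On the stromal side ECT2, an exchange factor that acts in cytokinesis, had 53.6 normalised tags (92 tags), TXNRD1, thioredoxin reductase, 40.1 (69 tags), and CITED2, which binds EP300 and CREBBP and restrains hypoxia signalling, 38.4 (66 tags). The linker histone gene HIST1H1C had 37.2 (64 tags), AHNAK 34.4 (59 tags) and SREBF1, a regulator of lipid synthesis, 29.1 (50 tags). The nearest astromal peak was 13.6 kb (SREBF1) to 98.7 kb (CITED2) away. Among non-coding genes LINC01203 reached 71.6 in 4 peaks. Here too the fold over surroundings was low, 5.21 at ECT2 and 4.14 at HIST1H1C.

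For the 7332 genes in both lists the normalised tags of all peaks of a gene were summed. By these sums 392 genes (5.35%) were called higher and 408 (5.56%) lower in the stromal list, and without centring 221 and 594. The counting interval left out 0 in 1526 of the 7332 genes (20.8%). The sums mostly counted peaks: 374 of the higher genes had a larger number of peaks in the stromal list, and 379 of the lower had fewer. By the highest peak of each gene 39 (0.532%) were called higher and 59 (0.805%) lower. Both measures called 28 genes higher and 38 lower, and in 15 and 26 of these the highest peaks overlapped.

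The largest higher sums were NPAS2, a circadian transcription factor (9.66 astromal, 42.5 stromal, centred log2 2.30, 1.44 to 3.28), VMP1, needed for autophagosome formation (8.92 and 36.6, and 0.16 over overlapping pairs alone), and DFNA5, the pore-forming gasdermin E (8.18 and 33.2). In NPAS2 and DFNA5 different elements were summed: the astromal peak of DFNA5 lay at -334 bp from its start and the stromal one at -63791 bp. TM4SF18, a tetraspanin-like membrane protein gene, had 21.6 in 1 astromal peak 17274 bp inside the gene and 75.6 in 3 stromal peaks, a ratio of 1.97 (1.38 to 2.60), and the stromal peak at -211 bp from its start had no astromal counterpart. At the peak that both lists shared its ratio was -0.27. C21orf59 was higher by the sum (14.1 and 46.5, 1.88), by its highest peak and at the shared promoter peak.

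The largest lower sums were JAK2 (30.4 and 6.4, centred log2 -2.09, -3.20 to -1.10), the antisense gene SRRM2-AS1 (32 and 6.98), FGF1, a fibroblast growth factor gene whose naming peak was 142019 bp from its start (46 and 10.5, and -0.57 over overlapping pairs alone), and DCK, deoxycytidine kinase, which activates nucleoside drugs such as gemcitabine (25.3 and 5.82, -1.96, -3.14 to -0.91). PSMG4, a proteasome assembly chaperone (37.9 and 8.73, with no overlapping peaks), EXO1 (35.7 and 8.73), RINT1 (30.4 and 7.56, and -0.55 over overlapping pairs alone, not called) and DPY30, a subunit of H3K4 methyltransferase complexes (28.2 and 7.56), followed. JAK2, DCK, EXO1, DPY30 and HEATR3 were lower also at highest peaks that overlapped. VIM-AS1, antisense to the vimentin gene, had 26.8 and 7.56, while VIM itself had a stromal peak alone (20.4). Without strand the peaks of an overlapping antisense pair cannot be told apart.

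Among the genes with the most H3K27ac, ZFP36L1, which destabilises AU-rich mRNAs, had 143 astromal and 222 stromal normalised tags (centred log2 0.80, not called). KLF6, a zinc finger factor, had 81.9 and 158 (1.11, called higher, and 0.95 uncentred). THBS2, the gene of the matrix protein thrombospondin-2, had 166 and 64.6 (-1.20, called lower). Genes with less H3K27ac but unequal peak numbers included SERTAD1, with 54.3 in 2 astromal and 110 in 6 stromal peaks (1.18, called higher). ADORA2B, an adenosine receptor gene, had 66.2 in 4 and 19.2 in 1 (-1.62, called lower). BTG2, an antiproliferative p53 target, had 47.6 in 4 and 15.1 in 1 (-1.49, called lower). None of these called genes was called at its highest peak, with ratios of 0.51 (KLF6), -0.45 (THBS2), -0.16 (SERTAD1), -0.11 (ADORA2B) and -0.22 (BTG2). These highest peaks were named from H3K9ac peaks far from the start. The distances were -68109 bp (KLF6), -38202 bp (THBS2), -7599 bp (SERTAD1), 14313 bp (ADORA2B) and 22292 bp (BTG2). LINC00910, with 216 and 199, and CROCC, with 201 and 183, were the highest of the astromal list and differed by less than 2-fold.

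Peaks of both lists at most 10 kb apart were also joined, which gave 10207 clusters, 7738 with peaks of both lists, 1247 astromal-only and 1222 stromal-only. Of the clusters with both, 474 (6.13%) were called higher and 481 (6.22%) lower, and 467 and 452 of these had more or fewer stromal peaks. The highest cluster, named for CROCC and MIR3675, summed to 213 and 194 normalised tags, a centred log2 ratio of 0.01 (-0.22 to 0.24). The largest higher cluster with at least 100 tags lay at chr7:24851699-24866302 (hg19), the distal element named for DFNA5, with 7.43 in 1 astromal and 68.7 in 3 stromal peaks, a ratio of 3.36 (2.43 to 4.45). BTD, the biotinidase gene, followed with 9.66 and 57.6, then BICD1 with 14.9 and 56.4 and ZNF217, a zinc finger oncogene, with 23.8 and 83.8. The largest lower cluster, named for MIR1915, held 66.9 in 5 astromal peaks and 10.5 in 1 stromal peak (-2.52, -3.34 to -1.78).

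GAPDH differed as a cluster and not at the peak that both lists shared. It summed to 78.8 in 3 astromal peaks (106 tags) and 24.4 in 1 stromal peak (42 tags), a ratio of -1.54 (-2.10 to -1.02). At the shared upstream peak the ratio was 0.14, and the other astromal peaks, at -694 and -221 bp from the start, had no overlapping stromal peak.

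Few peaks lay away from H3K9ac. No H3K9ac peak of either condition lay within 2 kb of 1366 astromal (9.43%, 8.96 to 9.92%) and 1772 stromal peaks (11.7%, 11.2 to 12.3%). Such peaks were commoner among one-list peaks, 16.2% of the astromal-only and 21% of the stromal-only, than among shared ones, 5.09% and 5.14%.

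H3K9ac, which these choices of peaks did not use beyond naming, was read at the same positions. A stromal H3K9ac peak overlapped 49.6% of the astromal-only and 34.8% of the stromal-only H3K27ac peaks, and an astromal H3K9ac peak 21.7% and 12.5%. The astromal-only H3K27ac peaks thus carried more H3K9ac in both conditions. Where both conditions had H3K9ac, its median centred log2 ratio was 0.06 at 999 astromal-only and -0.06 at 580 stromal-only peaks, so it did not lean towards the condition with the H3K27ac peak. Over 2568 H3K27ac pairs that overlapped an H3K9ac pair the ratios of the marks had a Pearson's r of -0.0443, a description over peaks of the same 4 libraries. Astromal H3K9ac overlapped 70.2% of the lower and 17.9% of the higher H3K27ac pairs, against 34.4% of the 8813 shared astromal peaks. Stromal H3K9ac overlapped 88.1% and 76.9%, against 68.8%. Both H3K9ac lists thus overlapped the lower pairs more often than the higher ones, and stromal H3K9ac was more frequent at both kinds than at shared peaks. Lower and higher pairs were not matched for position or height, so no common direction of the marks can be read from these shares. The H3K9ac ratio leaves out pairs with H3K9ac in a single condition, and covered 57 of the 84 lower and 6 of the 39 higher pairs. At those 57 lower pairs the centred ratio had a median of 0.13 and was above 0 in 61.4%. There the ratio did not follow the direction of H3K27ac.

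Pathway lists are given by their counts, to be read beside the shares over all genes: 11.5% astromal-only, 8.54% stromal-only, and of genes in both 5.35% higher and 5.56% lower by the sum. The lists were chosen with results of these data known, and no test was made of any list. Unless stated, a gene called by its sum was not called at its highest peak, so the call reflects the number of peaks.

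**Figure D5:**
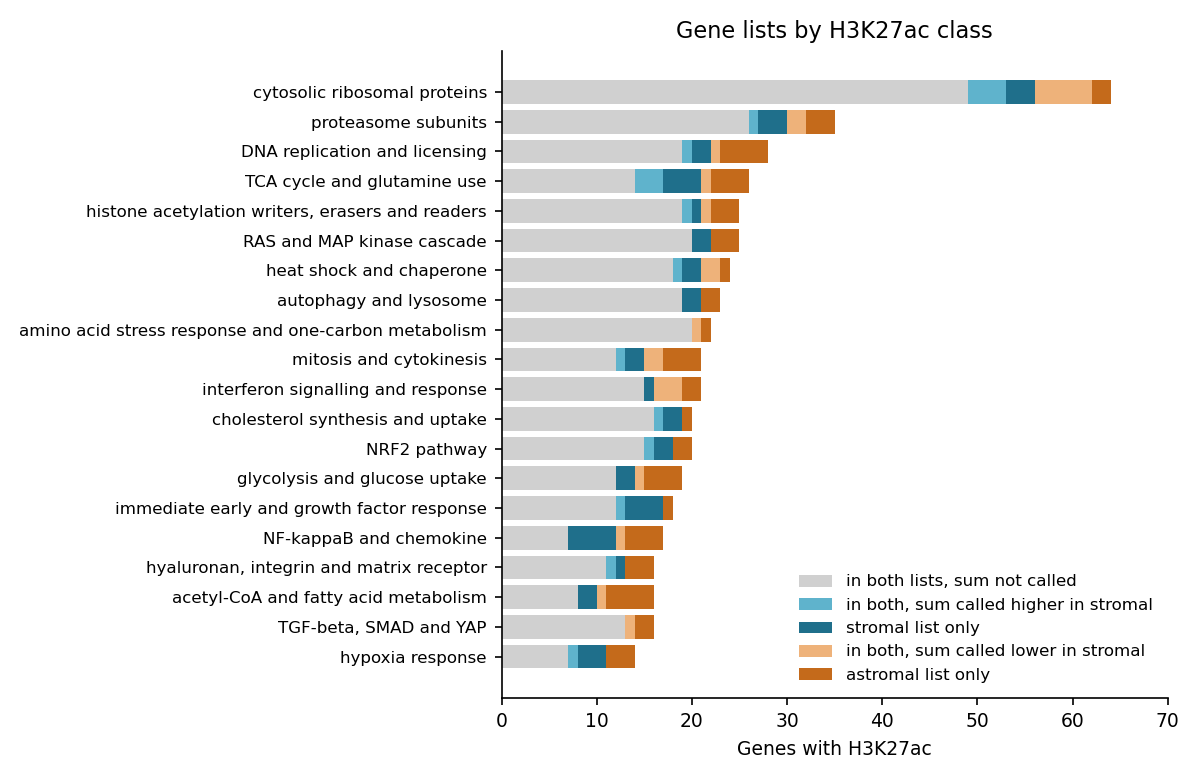
Number of genes (x axis) in each of 20 pathway lists with H3K27ac in both lists and higher, lower or not called by the sum of peaks, or in the astromal or stromal list alone. In 17 of the 20 lists most members are in both and not called, and NF-kappaB, acetyl-CoA and hypoxia genes are the exceptions; ribosomal protein genes show 4 higher and 6 lower of 59.

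Of 19 glycolysis and glucose uptake genes with H3K27ac 13 were in both lists, 4 astromal-only and 2 stromal-only, and GAPDH was the 1 lower gene. The astromal-only members were weak: ENO1 and TPI1 had 8.92 normalised tags, ENO2 and the lactate exporter SLC16A3 7.43. The stromal-only members were the glucose transporter SLC2A1 (7.56, with an astromal peak 1.98 kb away) and PFKFB3, which makes an activator of phosphofructokinase (6.98). LDHA, lactate dehydrogenase, was level at 80.2 and 79.2. Of 26 TCA cycle and glutamine genes 18 were in both, 4 in each list alone, 3 higher and 1 lower. IDH1 (9.66 and 20.4), DLAT (20.1 and 37.2) and GOT2 (10.4 and 19.8) were higher and DLST (18.5 and 8.14) lower.

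Acetyl-CoA and fatty acid genes, whose enzymes supply or use the acetyl donor of the mark, had 9 of 16 in both lists, 5 astromal-only and 2 stromal-only. ACLY, which makes acetyl-CoA from citrate, was lower (31.2 and 11.1, centred log2 -1.33, -2.19 to -0.51). HADHA and HADHB, subunits of the mitochondrial trifunctional protein that share a promoter, each had 20.1 in a separate peak of the astromal list alone. ACSS2 and FASN had 8.92, also in the astromal list alone. SREBF1, in contrast, was stromal-only. Cholesterol genes were mostly common, with 17 of 20 in both and HSD17B7 (14.1 and 28.6) the 1 higher gene. Amino acid stress and one-carbon genes were in both lists in 21 of 22 cases, with a median centred ratio of -0.19, and PYCR1, a proline synthesis enzyme (23 and 8.14), was lower.

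Of 14 hypoxia response genes 8 were in both, 3 in each list alone, and 1 was higher: VEGFA, the endothelial growth factor gene, had 17.8 in 1 astromal and 56.4 in 4 stromal peaks (centred log2 1.83, 1.17 to 2.54), with 0.21 at its highest peak. The VHL gene, whose ligase degrades hypoxia factors, was astromal-only (16.4 in 2 peaks). NRF2 pathway genes, which answer oxidative stress, had 16 of 20 in both and 2 in each list alone. ABCC1, a drug and glutathione-conjugate exporter, was higher (8.18 and 20.9), TXNRD1 was stromal-only and PGD astromal-only (23.8). The factor gene itself, NFE2L2, had 29 and 46.6 (0.85), and its target NQO1 53.5 and 79.7 (0.74), neither of which was called. Heat shock and chaperone genes had 21 of 24 in both, with DNAJC3 (6.69 and 18) higher and HSPD1 (31.3 and 13.4) and DNAJB1 (39.4 and 16.3) lower.

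Mitosis and cytokinesis genes were in both lists in 15 of 21 cases, with 4 astromal-only, 2 stromal-only, 1 higher and 2 lower. The spindle assembly factor TPX2 (51.3 and 17.5) and the kinetochore motor CENPE (24.5 and 6.98) were lower, and TOP2A, topoisomerase II alpha, was astromal-only (23.8). CENPF was higher by its sum (14.9 and 32.6, 1.29) but had -0.39 at its highest peak, and ECT2 and MKI67 (8.73) were stromal-only. DNA replication genes gave 21 of 28 in both, 5 astromal-only and 2 stromal-only, with the helicase subunit MCM2 (22.3 and 8.73) lower and the origin recognition subunit ORC5 (11.1 and 25.6) higher. These counts rest on few genes, so their distance from the shares over all genes is not read as a result. No member of either list was called at its highest peak.

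Among genes for histone acetylation writers, erasers and readers 21 of 25 were in both. EP300 (11.1) and CREBBP (6.69), the enzymes that place H3K27ac, and KAT2A (15.6) were astromal-only, although a stromal peak lay 1.47 kb from that of EP300. HDAC9, a deacetylase gene, was higher (18.6 in 1 peak and 68.1 in 4, centred log2 2.04, 1.40 to 2.72), and its naming peak lay at -142102 bp from the start. KAT6B was lower (23.8 and 9.89). The bromodomain gene BRD2 had 133 and 80.3 (-0.57, not called).

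Signalling lists showed few calls. TGF-beta, SMAD and YAP genes had 14 of 16 in both and a median of -0.25, with SMAD2 lower (28.2 and 11.1) and YAP1 at 58 and 27.3 (-0.92, not called). NF-kappaB and chemokine genes were the most divided, with 8 of 17 in both, 4 astromal-only and 5 stromal-only, and REL, an NF-kappaB subunit, was lower (19.3 and 7.56). The apoptosis inhibitor BIRC2 was astromal-only with 26, the inhibitor NFKBIB stromal-only with 14.5, and the chemokines CXCL1 and CXCL5 stromal-only with 6.4. Interferon genes had 18 of 21 in both, and JAK2, STAT3 (31.3 and 13.4) and IRF1 (18.5 and 6.4) were lower, JAK2 also at its highest peak. The receptor gene IFNGR1 was astromal-only (20.8). Immediate early genes had 13 of 18 in both, with KLF6 higher, and 4 stromal-only, including the AP-1 members FOSL2 (12.2) and JUN (9.31, overlapping an astromal peak under another name). RAS and MAP kinase genes had 20 of 25 in both and no call.

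Hyaluronan, integrin and matrix receptor genes bear on the gel itself, which held hyaluronan in both arms. Of 16 with H3K27ac 12 were in both. ITGB1, the beta subunit of collagen-binding integrins, was higher (24.5 and 56.5, centred log2 1.37, 0.79 to 1.98) through a stromal peak with a naming peak at -46884 bp, with 0.47 at its highest peak. CD44, the hyaluronan receptor, was astromal-only (18.6), as was SDC4 (13.4), and the collagen receptor DDR1 was stromal-only (7.56).

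The housekeeping lists were mostly common to both conditions. Of 64 cytosolic ribosomal protein genes 59 were in both, 4 higher and 6 lower. RPS27A was higher with 1 peak in each list (8.92 and 17.5, centred log2 1.14, 0.13 to 2.24), though these peaks did not overlap, and RPL36 (38 in 3 peaks and 10.5 in 1) had the lowest ratio, -1.69. Of 35 proteasome genes 29 were in both, with PSMB7 higher (8.18 and 15.7, 1.10) and PSMD5 lower (24.5 and 9.89, -1.15), each also at its single peak, and PSMA4 lower by its sum (27.5 and 8.14). Autophagy and lysosome genes had 19 of 23 in both and no call.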

How the data were processed

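Chromatin of MIA PaCa-2 spheroids was immunoprecipitated for H3K27ac and sequenced, 1 library per condition. Per the file headers and the submitters' processing notes, the authors aligned reads to hg19 (CASAVA 1.8.2, Bowtie) and called peaks with HOMER against input, requiring a fold of 4 over input and over the surrounding 10 kb. The deposited normalised tag count is a signal per 10000000 tags. The deposited lists also give input tags as a signal, a focus ratio as a fraction, a findPeaks score, the fold change ratio over input and surroundings, and p-values from the authors' caller, which describe single peaks and were not used to compare conditions. The astromal list alone has the deposited raw counts of tags per peak.

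Tags were derived from normalised tags and library totals (13453902 and 17190695). Overlapping peaks were paired by best mutual overlap. Ratios have exact conditional binomial intervals and shares exact Clopper-Pearson intervals, which cover counting error only. No comparison between conditions was tested, since each has 1 library. Named genes were, by a fixed rule of size, the 10 strongest of each single list, the 10 largest called sums each way, pairs with at least 20 tags per library, and called or one-list members of the pathway lists; other genes were named after their values were seen. Members and lists were chosen with earlier results of these data known. Python 3.11.15, numpy 2.4.6, pandas 2.3.3, scipy 1.17.1 and matplotlib 3.10.9 were used, and scripts were tested on simulated data. Some items are not reported here. The alternatives are described in the closing section.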

Additional observations from a re-analysis of the deposited data

How the results depend on the processing

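No replicate could be left out, since each condition has 1 library. No paired analysis was possible because the labels give 1 library per condition and mark. The setting of 25 tags with 8-fold and those on the position of peaks were chosen after seeing the data. Shared astromal peaks were 48.5% with 50% overlap required, 80.9% within 500 bp, 61.8% with at least 8-fold over input, 78.7% at 20 or more normalised tags and 87.2% at 25 or more tags and 8-fold over surroundings; stromal values were 46.6%, 80.8%, and 76.9% and 87.2% for the last 2 settings. The deposited score in place of normalised tags gave a median pair ratio of 0.15 and 55 lower pairs. With the median taken anew over pairs of at least 20 tags 7 were higher and 6 lower, and without centring 10 and 201. Genes in both were 2625 and stromal-only 493 at 15 or more normalised tags. With promoter peaks alone 624 genes were astromal-only and 517 stromal-only. Called genes were 39 higher and 59 lower by the highest peak, 23 and 48 over overlapping pairs, 150 and 114 with at least 20 tags, and 221 higher without centring. Peaks with no H3K9ac were 14.3% astromal and 17.5% stromal within 500 bp, 8.71% and 10.8% within 5 kb, and 7.82% of astromal peaks at 8-fold over input. The share 100 to 500 bp downstream was 36.2% of astromal-only peaks at 6-fold and 21.6% of stromal-only peaks with no astromal peak within 2 kb. Sums reversed for LOC101060542 (-0.94 over pairs), TM4SF18 (-0.27 over pairs), GAPDH (0.02 at the highest peak, 0.14 over pairs) and CENPF (-0.39 and -0.40); other peaks are then compared. Of 72 alternatives for shares and counts 39 changed little. For named genes and pairs only alternatives that gave a value were counted. The call or class was kept in 121 of 148 for called genes, 87 of 89 for one-list genes and 48 of 59 for pairs. It was kept under every such alternative by 13 of 29 called genes, 18 of 20 one-list genes and 2 of 10 pairs. Of the 392 higher and 408 lower genes by the sum, 14 and 28 were also called over overlapping pairs alone.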

Other observations

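Some strong peaks had no gene name because no H3K9ac peak lay within 2 kb. After the peak on chromosome 5, the strongest such astromal peaks lay on chromosome 12 (66.9 normalised tags, 4.4-fold over its surroundings) and chromosome 10 (44.6). The strongest stromal ones were lower, with 35.5 on chromosome 11 and 34.3 on chromosome 21. Several strong peaks of 1 list also stood far from any start: an astromal peak named TPRG1-AS2 (56.5) and a stromal peak named ARHGAP18, a gene for a GTPase-activating protein (46), both close to 4-fold over their surroundings.

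No value here has a replicate. A difference between the lists combines the gel, the conditioned medium, the library depth and the peak width. Most one-list peaks were weak or close to the calling limits, and absence from a list is not absence of the mark. Genes without H3K9ac nearby were not named. Peak sequences were not read, since no genome of the build was used here.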
